A study of Homo sapiens with 6 samples.

Results

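The genes described here are 10 stress- and growth-factor-responsive transcription genes: the FOS family members FOS, FOSB, FOSL1 and FOSL2, the JUN family members JUN, JUNB and JUND, the transcription factor genes EGR1 and ATF3, and the stress gene GADD45B. They were taken by gene symbol, and all 10 were found among the 26372 genes of the deposited table. The study measured poly(A) RNA in SH-SY5Y, a human neuroblastoma line. Of the 6 libraries, 3 came from cells with a stable short hairpin RNA (shRNA) against TDP-43, named shT2 and called the knockdown, and 3 from cells with a control shRNA, named shNC3 and called the control. TDP-43, the product of TARDBP, is an RNA-binding protein that regulates splicing. The shRNAs, expressed from a U6 promoter, were delivered by lentivirus. The labels describe puromycin selection and upkeep for the knockdown cells. Whether a group is 1 clone or a mixed population, whether its 3 libraries came from separate cultures, and how long before harvest the cells last received fresh serum are not given here. P-values thus rest on the spread of libraries that may be technical repeats.

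FOS and JUN family proteins pair through leucine zippers to form AP-1, a dimer that binds the TPA response element. JUN proteins can pair with each other, whereas FOS proteins need a partner such as a JUN protein to bind DNA. FOS, FOSB, JUN, JUNB and EGR1 are immediate-early genes: their transcription starts within minutes of growth factors, serum, depolarisation or stress, through MAP kinases and serum response factor (SRF), and their messenger RNAs decay fast. ATF3 is a stress-induced relative that also pairs with JUN proteins, and GADD45B encodes a small protein that binds stress kinase and cell-cycle proteins.

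Promoter sequences are shown because these genes were lower together and their best-known inputs act at short promoter elements. RefSeq promoters (GRCh38.p14) were matched by symbol for 9 of the 10 genes, 10 promoters in all because ATF3 has 2, and FOSL1 was not among them. The 250 bases before each start were searched on both strands for TGANTCA (the TPA response element), TGACGTCA (the cyclic AMP response element), GCGTGGGCG and GCGGGGGCG (EGR1 sites) and the CArG box (the core of the serum response element). None of these motifs overlap in the 3 promoters that held one. EGR1 held 2 CArG boxes, JUND 1 TGACGTCA and GADD45B 1 GCGGGGGCG on the opposite strand, and the other promoters held no exact match. Elements farther upstream than 250 bases, and variants that differ from these motifs, were not searched. A promoter without a match may thus still hold such an element. The starts are those of RefSeq and can differ from the gene positions given below. The windows searched for JUN and FOSL2, and that of ATF3 promoter 2, lay wholly inside those gene spans. Of 35116 promoters, 1.16% held a CArG box, 1.65% TGACGTCA, 4.72% GCGGGGGCG, 0.72% GCGTGGGCG and 6.57% TGANTCA. The stretches around the matches follow, 5′ to 3′ on each gene's own strand, with the matched bases in capitals.
EGR1 (chr5:138465359-138465420, plus strand): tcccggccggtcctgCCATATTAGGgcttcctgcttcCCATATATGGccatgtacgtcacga
JUND (chr19:18281800-18281837, minus strand): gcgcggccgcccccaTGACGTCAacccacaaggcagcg
GADD45B (chr19:2475953-2475991, plus strand): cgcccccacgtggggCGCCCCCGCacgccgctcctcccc

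Values are FPKM, which relates fragments to transcript length and sequencing depth, so levels can be compared between genes. Differences are knockdown minus control on the log2(FPKM + 1) scale, on which changes of low genes look smaller than they are, and a gene was called at a limma adjusted p (Benjamini-Hochberg) under 0.05. Read numbers cannot be recovered from FPKM, and the depth of a library is unknown. Ratios of the smallest values placed knockdown libraries at 52.5% to 94.6% of the depth of control library 1 and the other control libraries at 84.4% and 95.9%. TARDBP stood at 21.2 ± 0.598 FPKM in knockdown cells and 49.5 ± 1.49 in control cells (SD, n = 3 each), a log2 difference of -1.19 (limma adjusted p = 6.69e-08).

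All 10 genes were lower in the knockdown. Each of them lay below every control library in all 3 knockdown libraries, and each passed the limma test, JUND only just. The differences ran from -4.00 for FOSL1 to -0.22 for JUND, with a median of -1.43, against a median of -0.02 over all 13434 genes tested. The background was high: 66.3% of all genes tested were called, made up of 35.9% lower and 30.5% higher. All 3 knockdown values lay below all 3 control values in 38.2% of genes and above them in 32.5%. Called falls of at least 1 log2 unit were rarer, at 7.95% of tested genes, and 7 of the 10 (FOSL1, GADD45B, FOS, EGR1, JUN, JUNB and FOSB) were among them. All 10 passed the minimum of a mean of 1 FPKM over the 6 libraries. FOSB stood at 1.02 FPKM, just above it. FOSL1, GADD45B and FOSB were under 1 FPKM in the knockdown and passed only through their control level, so that they had to differ. In bulk RNA, fewer cells that express a gene and less of its RNA per cell cannot be told apart. The exact permutation test (two-sided) of single genes gave p = 0.1 for each, the smallest that 3 libraries against 3 allow.

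**Figure D1:**
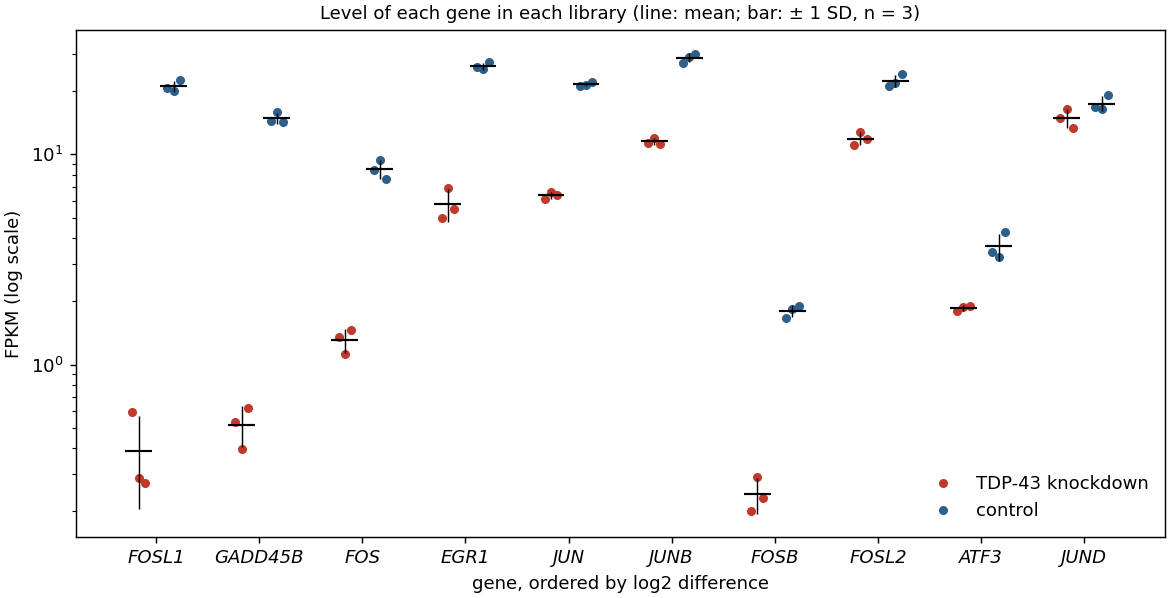
FPKM (log scale) of each of the 10 genes in the 3 knockdown libraries (red) and the 3 control libraries (blue), with the mean as a line and ± 1 SD as a bar. All knockdown points lie below all control points of the same gene, from a 54.7-fold gap between the means for FOSL1 to a gap within 1.17-fold for JUND.

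**Figure D2:**
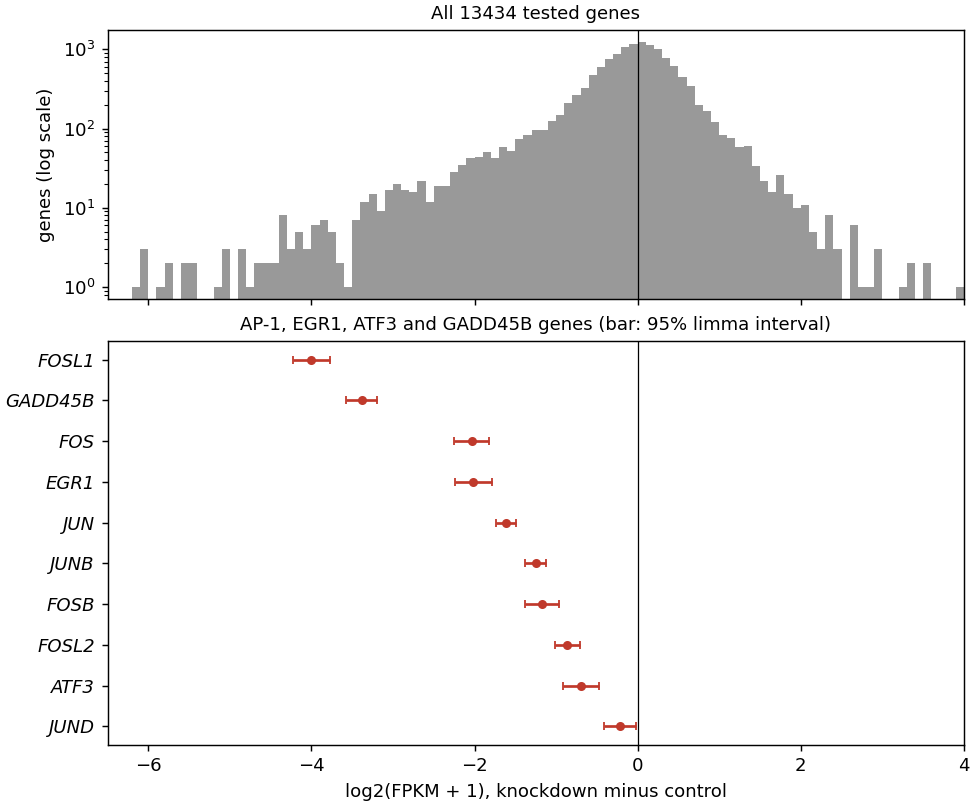
Upper panel, number of genes (log scale) at each log2 difference, knockdown minus control, over the 13434 genes tested, 3 of which lie outside the plotted range. Lower panel, the difference of each of the 10 genes with its 95% limma interval, from -4.00 for FOSL1 to -0.22 for JUND.

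Within the FOS family the 4 genes differed widely in how far they fell. FOSL1 (chromosome 11, 65892049 to 65900573, minus strand, GENCODE v29 on GRCh38, as for all genes below) encodes FRA-1, an AP-1 subunit of invasive and mesenchymal cells. It stood at 0.595, 0.290 and 0.273 FPKM in knockdown libraries, against 20.6, 20.1 and 22.6 FPKM in the 3 control libraries. Knockdown library 1 held about the level of the other 2 together, and the groups lay far apart. Averages were 0.386 ± 0.181 FPKM in knockdown cells and 21.1 ± 1.34 FPKM in control cells (SD, n = 3 each), 54.7-fold lower with the knockdown, and the log2 difference of -4.00 (SE 0.10, limma adjusted p = 5.19e-09) was the 45th largest fall of all genes tested.

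FOS (chromosome 14, 75278774 to 75282230, plus strand), the founding member of the family, stood at 1.35, 1.12 and 1.46 FPKM in knockdown libraries, against 8.39, 9.39 and 7.66 FPKM in control libraries. Its knockdown mean was 0.154 times the control mean, and the log2 difference was -2.04 (SE 0.094, limma adjusted p = 2.12e-07). FOSB (chromosome 19, 45467995 to 45475179, plus strand), which builds up in neurons under repeated stimulation, had the lowest mean of the 10 genes in both groups. It stood at 0.200, 0.291 and 0.232 FPKM in knockdown libraries, against 1.67, 1.83 and 1.90 FPKM in control libraries. The groups lay apart, with a knockdown mean 0.134 times that of the control and a log2 difference of -1.17 (SE 0.093, limma adjusted p = 7.07e-06). FOSB lies wholly inside the span of ERCC1 on the opposite strand, and the use of strand in counting is not given. ERCC1, a DNA repair gene, stood at 25.5 to 27.8 FPKM in knockdown libraries and 26.6 to 28.1 FPKM in control libraries.

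FOSL2 (chromosome 2, 28392448 to 28417312, plus strand), which encodes FRA-2, kept the most of its level in this family. It stood at 11.05, 12.7 and 11.8 FPKM in knockdown libraries, against 21.1, 21.9 and 24.1 FPKM in control libraries, a ratio of means of 0.531 and a log2 difference of -0.86 (SE 0.069, limma adjusted p = 7.61e-06). With a pseudocount of 0.1, which compresses low values less, the log2 differences of FOSL1, FOS and FOSB were -5.51, -2.61 and -2.48. FOSB fell under the minimum level and was not tested when any 1 control library was left out.

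In the JUN family the fall grew smaller from JUN to JUNB to JUND. JUN (chromosome 1, 58780788 to 58784327, minus strand), a gene of 1 exon and the main transactivating partner of FOS, stood at 6.12, 6.62 and 6.38 FPKM in knockdown libraries, against 21.2, 21.3 and 22.0 FPKM in control libraries. Both groups were tight, and the log2 difference was -1.61 (SE 0.053, limma adjusted p = 2.73e-08). JUNB (chromosome 19, 12791496 to 12793315, plus strand), also of 1 exon and able to curb transactivation by JUN, stood at 11.4, 12.0 and 11.2 FPKM in knockdown libraries, against 27.3, 29.1 and 30.1 FPKM in control libraries. Its log2 difference was -1.25 (SE 0.055, limma adjusted p = 1.59e-07). JUNB lies wholly inside the span of HOOK2 on the opposite strand, which stood at 4.79 to 6.39 FPKM in knockdown libraries and 4.09 to 4.64 FPKM in control libraries.

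JUND (chromosome 19, 18279760 to 18281622, minus strand), the family member known for steady expression in resting cells, changed least of the 10 genes. It stood at 14.9, 16.4 and 13.4 FPKM in knockdown libraries, against 16.7, 16.5 and 19.1 FPKM in control libraries. Knockdown library 2 came within 0.1 FPKM of the lowest control library, so the groups barely separated. Averages were 14.9 ± 1.53 FPKM in knockdown cells and 17.5 ± 1.44 FPKM in control cells (SD, n = 3 each), with a log2 difference of -0.22 (SE 0.084, 95% interval -0.41 to -0.03, limma adjusted p = 0.0464). This call was lost under 11 of 17 alternative settings, including median-of-ratios rescaling (-0.19, limma adjusted p = 0.0903) and quantile normalization (-0.10, limma adjusted p = 0.363), which moved the median of all genes up by 0.11. Relative to that median JUND stood at -0.19 with quantile normalization and at -0.20 on the deposited scale. It was also lost without knockdown library 1 (-0.22), knockdown library 3 (-0.15), control library 1 (-0.24), control library 2 (-0.25) or control library 3 (-0.15), with limma adjusted p from 0.0557 to 0.164. Without knockdown library 2 the difference was -0.29 and the call held (limma adjusted p = 0.0105).

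The unequal falls changed the makeup of the FOS and JUN messenger RNA pool. Summed over the 7 genes, the level was 45.5, 49.5 and 44.8 FPKM in knockdown libraries, against 116.9, 120.1 and 127.5 FPKM in control libraries, with no overlap. JUND made up 32.6%, 33.2% and 29.9% of that sum in knockdown libraries, against 14.3%, 13.8% and 15.0% in control libraries. The 4 FOS family genes together made up 28.96%, 29.2% and 30.8% in knockdown libraries, against 44.2%, 44.3% and 44.1% in control libraries. FOSL2 was the largest part of this share in the knockdown, at 25.5% ± 1.09 of the 7-gene sum in knockdown cells and 18.4% ± 0.433 in control cells, while FOSL1 held 0.834% ± 0.409 in knockdown cells and 17.4% ± 0.550 in control cells (SD, n = 3 each). JUNB held close shares, 24.8% ± 0.461 in knockdown cells and 23.7% ± 0.440 in control cells. For the sum, the JUND share and the FOS family share the exact two-sided permutation p was 0.1, the smallest possible. Messenger RNA shares say nothing of the AP-1 dimers present.

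**Figure D3:**
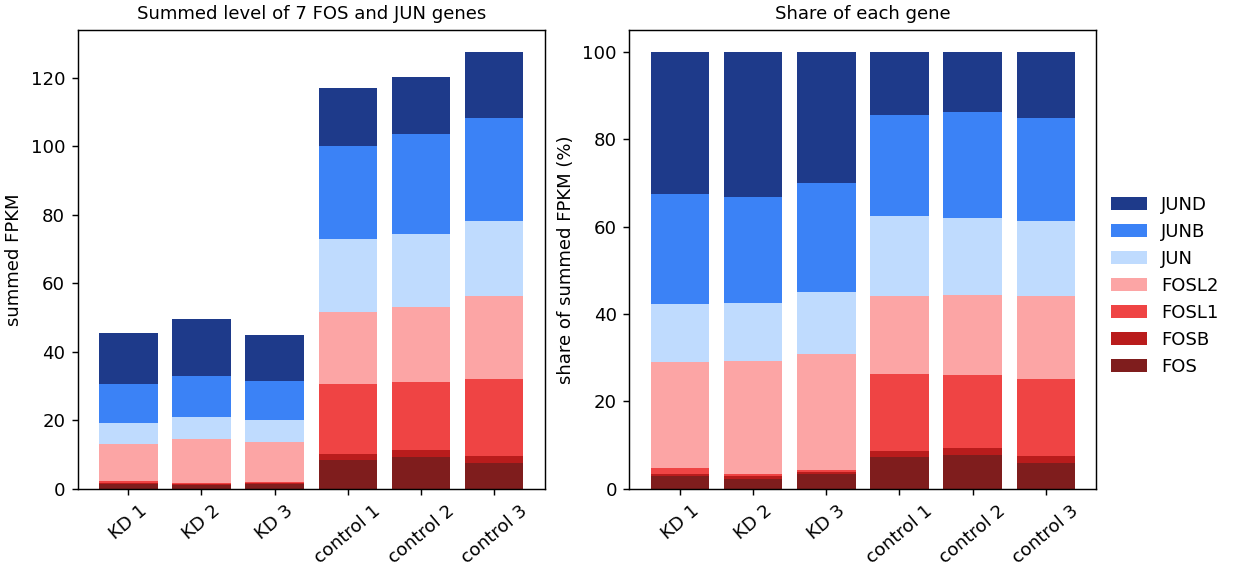
Left, summed FPKM of the 7 FOS and JUN family genes in each library, stacked by gene, with the 3 knockdown (KD) libraries left of the 3 control libraries. Right, each gene's share of that sum in percent; JUND (darkest blue) takes 29.9% to 33.2% in knockdown cells and 13.8% to 15.0% in control cells, and FOSL1 is nearly absent from the knockdown bars.

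The order of the 10 genes by level differed between the groups. In the knockdown JUND was the highest, apart from FOSL2 and JUNB, which overlapped each other. JUN and EGR1 followed and overlapped, then ATF3 and FOS apart from their neighbours, and GADD45B, FOSL1 and FOSB at the bottom, each overlapping the next. In the control JUNB and EGR1 were the highest and overlapped, followed by FOSL2, JUN and FOSL1, each overlapping the next. JUND was the 6th in control cells, below all of these, and GADD45B, FOS, ATF3 and FOSB followed, each apart from its neighbours.

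EGR1 (chromosome 5, 138465490 to 138469315, plus strand), a zinc finger factor induced through SRF at CArG boxes such as those printed above, stood at 4.97, 6.93 and 5.49 FPKM in knockdown libraries, against 26.0, 25.5 and 27.4 FPKM in control libraries. Knockdown library 2 was the highest of its group and still far below every control library. The knockdown mean was 0.220 times that of the control, with a log2 difference of -2.02 (SE 0.098, limma adjusted p = 3.03e-07). With a pseudocount of 0.1 it was -2.18. Of the other EGR genes and the NAB co-repressors that EGR proteins bind, only NAB1 and NAB2 were high enough to test. NAB2, itself an EGR1-induced feedback gene, stood at 6.77 ± 0.337 FPKM in knockdown cells and 16.1 ± 1.61 FPKM in control cells (SD, n = 3 each; log2 difference -1.13, limma adjusted p = 2.99e-06). NAB1 was not called (17.1 ± 2.18 FPKM in knockdown cells and 16.2 ± 0.467 in the control), but was called higher without knockdown library 2 (log2 difference 0.17, limma adjusted p = 0.0199). Below the minimum, EGR3 stood at 0.0836, 0.168 and 0.170 FPKM in knockdown libraries, against 0.569, 0.525 and 0.716 FPKM in control libraries. EGR2 stood at 0.134, 0.134 and 0.0744 FPKM in the knockdown, against 0.262, 0.568 and 0.417 FPKM in control cells. Neither EGR2 nor EGR3 overlapped between groups, as for the 38.2% of tested genes whose knockdown values all lay below the control values, and few fragments stand behind values this low. EGR4 was listed at 0 in all but 1 control library.

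ATF3 (chromosome 1, 212565334 to 212620777, plus strand) was low in both groups, at 1.79, 1.87 and 1.90 FPKM in knockdown libraries, against 3.43, 3.25 and 4.27 FPKM in control libraries. The groups lay apart, with the wider spread in control cells, and the log2 difference was -0.70 (SE 0.096, limma adjusted p = 0.000242). The knockdown mean was 0.508 times that of the control. With a pseudocount of 0.1 the log2 difference of ATF3 was -0.93, near that of FOSL2 at -0.91.

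GADD45B (chromosome 19, 2476122 to 2478259, plus strand) had the second largest fall, with 0.535, 0.396 and 0.622 FPKM in knockdown libraries, against 14.4, 15.9 and 14.3 FPKM in control libraries. The knockdown mean was 28.7-fold lower, and the log2 difference of -3.39 (SE 0.083, limma adjusted p = 4.43e-09) was the 76th largest fall of all genes tested. With a pseudocount of 0.1 it was -4.61. While 35.9% of all genes tested were called lower and 30.5% higher, the GADD45 list was small. Among 6 tested relatives and binding partners of GADD45 proteins, 5 fell and none rose. They were GADD45A, also stress-induced, at 14.0 ± 0.504 FPKM in knockdown cells and 34.4 ± 1.28 in control cells (SD, n = 3 each), the mitotic kinase genes CDK1 (log2 difference -1.08) and its cyclin CCNB1 (-1.01), GADD45GIP1 (-0.30) and the stress kinase kinase kinase gene MAP3K4 (-0.18). The calls of GADD45GIP1 and MAP3K4 were lost with quantile normalization, and that of MAP3K4 also without control library 1. PCNA was not called, at 62.4 ± 6.66 FPKM in knockdown cells and 67.8 ± 3.67 FPKM in control cells. The third family member, GADD45G, was below the minimum and overlapped between groups, at 1.27, 0.541 and 0.549 FPKM in knockdown libraries, against 0.670, 0.466 and 0.529 FPKM in control libraries.

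Among 10 tested bZIP partner genes, whose products can join FOS or JUN proteins, 6 fell and 1 rose, with a median log2 difference of -0.44. These 7 calls of 10 are near the 66.3% called over all genes in either direction. By direction the list leaned lower: 6 of 10 fell, against 35.9% of all genes, and 1 of 10 rose, against 30.5%. CREB5, a CREB and ATF2 relative, stood at 4.49 ± 0.537 FPKM in knockdown cells and 16.1 ± 0.111 in control cells, and the small Maf gene MAFK at 1.48 ± 0.242 FPKM in knockdown cells and 5.69 ± 0.261 in control cells (SD, n = 3 each). CREM had a log2 difference of -1.22, MAFF -0.99, MAFG -0.58 and ATF7 -0.30, and the ATF7 call was lost with quantile normalization and without control library 1, control library 2 or knockdown library 3. ATF2, CREB1 and JDP2 were not called. ATF2, a JUN partner and JNK target, stood at 24.6 ± 2.69 FPKM in knockdown cells and 22.5 ± 0.961 FPKM in control cells, and was called higher without knockdown library 2 (0.21, limma adjusted p = 0.00458) and with quantile normalization (0.29, limma adjusted p = 0.00848).

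Upstream of these genes, of 20 tested MAP kinase cascade genes 7 fell, 7 rose and 6 were not called, with a median of 0.11. These shares are near those over all genes tested, 35.9% lower and 30.5% higher. Of the genes not called, MAPK3 and MAPK8 were called higher with quantile normalization (0.25 and 0.22, limma adjusted p = 0.0309 and 0.00728). MAPK3 was also called higher without knockdown library 1, and MAPK8 without knockdown library 2. MAP2K3 and MAP2K6, which both activate p38, went opposite ways: MAP2K3 stood at 5.31 ± 0.706 FPKM in knockdown cells and 15.6 ± 0.736 in control cells, and MAP2K6 at 26.8 ± 2.90 FPKM in knockdown cells and 9.99 ± 1.11 in control cells (SD, n = 3 each). RPS6KA5, which encodes MSK1, a kinase that phosphorylates CREB, rose (log2 difference 1.19). Among SRF and its cofactors 4 of 6 fell and 2 rose. SRF stood at 10.6 ± 0.837 FPKM in knockdown cells and 15.1 ± 1.34 in control cells (log2 difference -0.47, limma adjusted p = 0.00079). ELK3, a ternary complex factor that partners SRF, stood at 15.9 ± 1.25 FPKM in knockdown cells and 62.5 ± 2.17 in control cells, and ELK4 and the actin-regulated cofactor gene MKL1 had differences of -0.56 and -1.01. ELK1 and MKL2 rose by 0.47 and 0.23.

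Most other immediate-early genes were lower as well. Of 22 tested, 17 fell, 4 rose and 1 (NR4A3) was not called, with a median of -1.09. For comparison, 35.9% of all genes tested were called lower and 30.5% higher. CTGF, CSRNP1 and IER3, 3 of the 17, averaged under 1 FPKM in the knockdown and passed the minimum only through the control. The largest falls were in CTGF and CYR61, matricellular genes that respond to YAP and SRF, with log2 differences of -5.45 and -4.85. HBEGF, an EGF receptor ligand, stood at 3.69, 3.86 and 3.60 FPKM in knockdown libraries, against 33.3, 33.0 and 33.7 FPKM in control libraries. KLF6, a zinc finger factor, stood at 6.62, 6.00 and 6.87 FPKM in knockdown libraries, against 49.95, 50.3 and 50.7 FPKM in control libraries. MYC went the other way, with 49.5, 49.1 and 48.3 FPKM in knockdown libraries, against 14.3, 13.2 and 15.0 FPKM in control libraries (log2 difference 1.72, limma adjusted p = 1.68e-08). BTG2, TRIB1 and ZFP36L1 also rose, by 0.59, 0.51 and 0.24. The ZFP36L1 call was lost under 9 of 17 alternative settings, among them quantile normalization, rescaling to equal sums, and leaving out any library but knockdown library 3. KLF2 was below the minimum, with a listed 0 in each knockdown library, against 1.76, 1.70 and 1.37 FPKM in control libraries. ARC, also below it, overlapped between groups, at 0.697, 0.589 and 0.749 FPKM in knockdown libraries, against 0.485, 0.552 and 0.865 FPKM in control libraries. KLF4 overlapped too. NPAS4 and NR4A2 lay below the control in each knockdown library, as 38.2% of tested genes did, at no more than 0.278 FPKM.

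Of 17 tested genes known as AP-1 targets, 15 fell, 1 rose and 1 (HMGA1) was not called, though it was called higher with quantile normalization (0.37, limma adjusted p = 5.99e-05). The shares over all genes tested were 35.9% called lower and 30.5% called higher. The count of 15 holds 7 genes (MMP1, MMP3, MMP9, CXCL8, LIF, HMOX1 and EDN1) that averaged under 1 FPKM in the knockdown and passed the minimum only through the control, and so had to differ. The other 8 averaged over 1 FPKM in the knockdown too. The median log2 difference was -2.07, or -1.87 without MMP1, MMP3 and CXCL8, all with a listed 0 in each knockdown library. The urokinase receptor gene PLAUR stood at 3.27 ± 0.213 FPKM in knockdown cells and 27.5 ± 1.05 in control cells (SD, n = 3 each). The collagenase gene MMP1 stood at 28.0, 27.1 and 24.3 FPKM and the chemokine gene CXCL8 at 12.0, 13.7 and 12.4 FPKM in control libraries, both listed at 0 in the knockdown, and an exact 0 in this table can be a failed estimate. SPP1, osteopontin, rose, at 1.89 ± 0.494 FPKM in knockdown cells and 0.622 ± 0.201 FPKM in control cells, and passed only through the knockdown. VIM and CD44 are also markers of the mesenchymal state, and without them 13 of 15 fell. These genes have many other regulators.

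**Figure D4:**
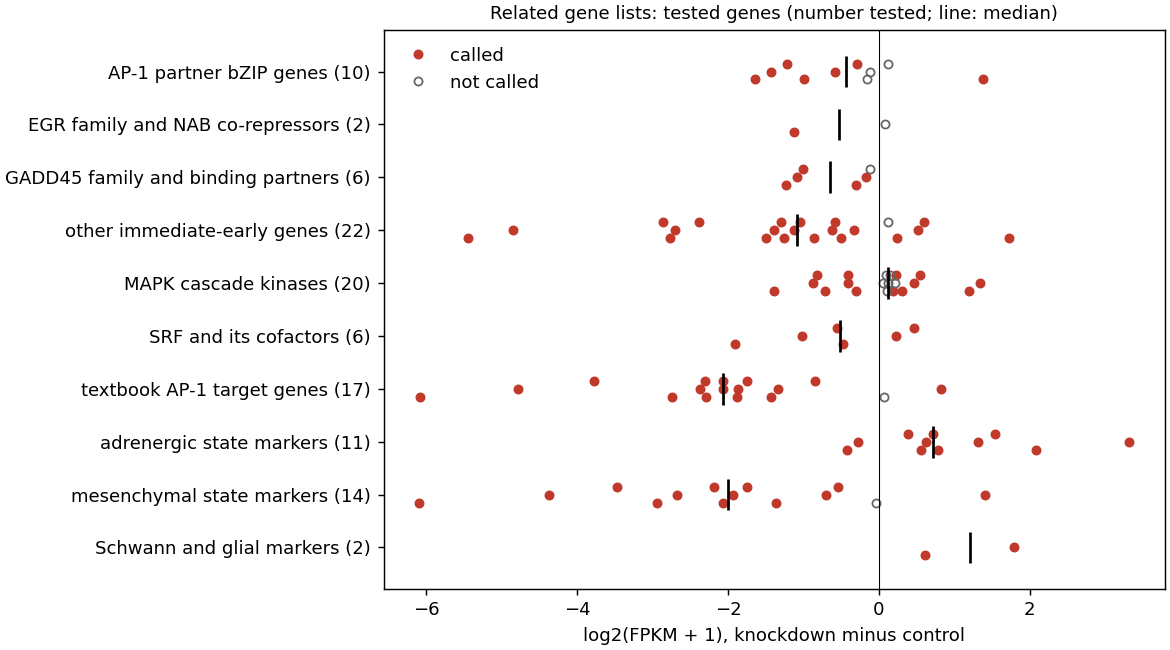
Log2 difference, knockdown minus control, of each tested gene in the 7 related lists and the 3 marker lists, with called genes filled, genes not called open, and the median of each list as a line. AP-1 target genes (median -2.07) and other immediate-early genes (median -1.09) lie mostly left of 0, and MAP kinase genes lie on both sides (median 0.11).

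Markers of the states this line can take also differed between the groups. Neuroblastoma cells can be adrenergic, with a sympathetic neuron programme, or mesenchymal, and AP-1 genes are known to be high in the mesenchymal state. Of 14 mesenchymal markers 12 fell, TWIST1 rose and SNAI2 was not called, and their summed level was 777 to 789 FPKM in knockdown libraries and 2415 to 2456 FPKM in control libraries. Over all genes tested, 35.9% were called lower and 30.5% higher. CAV1 was listed at 0 in every knockdown library, and PRRX1 stood at 0.0157 ± 0.0152 FPKM in knockdown cells and 68.6 ± 1.59 in control cells (SD, n = 3 each). CAV1 and PRRX1 passed the minimum only through their control level, so that they had to differ. Of 11 tested adrenergic markers 9 rose and 2 (STMN2 and DBH) fell, the DBH call being lost with quantile normalization, and the summed level was 1266 to 1373 FPKM in knockdown libraries and 787 to 792 FPKM in control libraries. The adrenergic factor gene HAND2 was present in both groups, at 363 ± 28.6 FPKM in knockdown cells and 210.0 ± 1.31 FPKM in control cells (SD, n = 3 each). The tyrosine hydroxylase gene TH was listed at 0 in all libraries. Of 6 Schwann and glial markers 2 passed the minimum, both only through the knockdown, S100B among them, and both rose, with a sum over all 6 of 7.58 to 9.14 FPKM in knockdown libraries and 2.72 to 2.85 FPKM in control libraries. The part of these marker differences in the falls of the AP-1, EGR1, ATF3 and GADD45B genes was not tested.

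The genes outside the 10 whose profile over the 6 libraries was most like that of FOSL1 were TPM1, MICAL2, LPP, NPY and MT2A. Likeness was the root-mean-square distance of log2 values, centred on the control mean, and ran from 0.12 for TPM1 to 0.14 for MT2A. Most of each profile is the step between the groups. LPP, a focal adhesion gene, was close to FOSL1 in level too, at 0.364 ± 0.0256 FPKM in knockdown cells and 19.6 ± 0.586 in control cells (SD, n = 3 each). TPM1 encodes a tropomyosin, MICAL2 an enzyme that oxidises actin, NPY a sympathetic neuropeptide and MT2A a metallothionein.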

How the data were processed

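Poly(A) RNA was made into directional libraries, per the labels' protocols. The authors deposited 1 FPKM value per gene and library. The submitters' processing notes name hg38 and the tools Cuffdiff 2.2.1, TopHat2 2.1.0 and SAMtools, without roles or settings; annotation and strand setting are not given there. Column sums differed by group, from 2123050 to 2449950 FPKM in knockdown libraries and from 1182980 to 1226730 FPKM in control libraries. In them 6 small RNAs held 79.7% to 82.0% in the knockdown and 63.8% to 64.9% in the control. No 2 libraries shared more than 1 identical non-zero value.

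Genes averaging at least 1 FPKM were fitted as log2(FPKM + 1) in limma 3.58.1 (R 4.3.3, intensity trend, two-sided) over all 13434 such genes. The test was checked on simulated data. Sums and shares were compared by exact permutation tests over libraries. Gene positions are 1-based, from GENCODE v29; sequences are from RefSeq. Promoters and plots used Python 3.11.15, pandas 2.3.3 and matplotlib 3.10.9.

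The 10 genes and all lists were chosen with earlier results of these data known. Named are the 10 genes, TARDBP, up to 4 called members of each list with the largest change, members of any direction with 5 or fewer calls, and the 5 genes nearest to FOSL1. Other named list members were chosen after their values were seen. Some genes that this rule names are not reported here. Alternatives were 2 pseudocounts, 3 minimum levels, 3 rescalings, a replicate block, 2 limma options and leaving out each library.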

Additional observations from a re-analysis of the deposited data

How the results depend on the processing

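Of the 10 genes, all but JUND kept their direction and call under every alternative that tested them, with limma adjusted p of at most 0.00129, and JUND kept its direction (-0.29 to -0.10). Of 94 called genes of the related and marker lists, 6 lost their call under 1 to 9 settings: ZFP36L1, ATF7, MAP3K4, GADD45GIP1, DBH and RHOB, each of them with quantile normalization. No result reversed. At a minimum mean of 5 FPKM, FOS, FOSB and ATF3 were not tested. Fewer list genes were tested too: 4 of 6 bZIP partners and 10 of 11 AP-1 targets were called. At that minimum 69.0% of all genes tested were called. With no minimum or one of 0.1 FPKM, the EGR and NAB calls numbered 3, of 5 and 4 tested, because EGR2 and EGR3 entered. The main setting gave 1 of 2. Over all genes 49.7% were called with no minimum and 59.1% with 0.1 FPKM. Leaving out 1 library gave 1 to 2 EGR and NAB calls, the second being NAB1, called higher without knockdown library 2. With quantile normalization 3 of the 6 tested GADD45 relatives and partners were called, against 5 of 6, while 68.0% of all genes were called. The 7-gene sum then differed by -67.0 FPKM, against -74.9 as deposited, and by -77.2 to -71.9 with 1 library left out; the JUND and FOS family shares moved by less than their spread. Quantile normalization also gave 5368 genes higher and 3773 lower (58.7% higher), against 4092 and 4817 (45.9% higher) as deposited. Replicate numbers did not pair the libraries: deviations of same-numbered libraries correlated at -0.18 to -0.02. A replicate block gave 9 of the 10 genes called, JUND being lost (limma adjusted p = 0.0765), as were MAP3K4 (limma adjusted p = 0.0556) and ZFP36L1 (0.0796), and 4667 lower and 3894 higher genes overall. With no read numbers, precision at the level of FOSB, FOSL1 and GADD45B in the knockdown cannot be given.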
